A study of Mus musculus with 12 samples.

Results

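The 34 genes described here are 15 glycolytic enzymes, 2 membrane transporters of glucose and lactate, 3 kinases that set the flow of sugar and pyruvate, the gene of hypoxia-inducible factor 1 alpha (Hif1a), and 13 other known targets of that factor with no part in glycolysis. They were chosen by gene symbol from the 16516 symbols that occur in the 4 deposited expression tables. All 34 were listed in each table and all passed the filter on low values in each fit. The macrophages were grown from mouse bone marrow. Of the 4 groups, those labelled KO came from MGMT knockout mice and those labelled WT from wild-type mice that the labels give as WTfl/fl. Each genotype received DMXAA, an agonist of the mouse innate immune receptor STING, or its vehicle DMSO, for 24 h, and the series' design text gives DMXAA at 10 mg/ml, which is high for cells in culture and whose unit could not be checked here. Each group holds 3 libraries, 12 in all, under the same batch label. The labels name no Cre line, promoter or deleted exon, and whether the 3 samples per group stem from separate mice is not stated, so the p-values measure only the spread between these samples.

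Glycolysis splits glucose in the cytosol into pyruvate, and lactate dehydrogenase turns pyruvate into lactate that leaves the cell through monocarboxylate transporters. Hypoxia-inducible factor (HIF) is a pair of an oxygen-regulated alpha chain and the partner ARNT. When oxygen is present, prolyl hydroxylases of the EGLN family mark the alpha chain for destruction. When oxygen is scarce, the pair binds DNA at a short core motif and raises genes of glucose uptake, glycolysis, vessel growth, mitochondrial removal and collagen modification. In macrophages, inflammatory signals can also stabilise the alpha chain with oxygen present, and activated macrophages are known for their use of glycolysis. Many of the 15 enzymes, though not all, are themselves known as HIF targets. The comparison of the enzymes with the 13 other targets thus sets 2 partly related sets of genes side by side.

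The letters ACGTG and GCGTG, which cover the HIF core motif, were searched on both strands in the 250 bases before each RefSeq start (build GRCm38.p6). CACGT and CACGC are the same letters read on the opposite strand, and matches may overlap. Windows were matched for 32 of the 34 members, all but Bnip3l and Ndrg1, and a gene with several starts was counted once if any window held the letters. They were found for 30 of these 32 members (93.8%), for 13 of 15 enzymes and for 11 of 11 non-glycolytic targets, against 41.5% of 27025 genes of the whole table and 60.5% of the 10082 genes that were also tested in WT macrophages. ACGTG alone was found for 65.6% of the members, 18.5% of the whole table and 25% of the 10082 tested genes. Vegfa was counted only through a window inside its GENCODE bounds (chr17:46025164-46025413). Its window before the outermost annotated start (chr17:46032378-46032627) held 0 matches. Some other members, such as Gapdh and Hif1a, were also counted through windows inside their bounds. A match is a string of letters and not a measured binding site. Known HIF targets were picked as members, so a share above that of all genes was likely from the start and tests nothing. A gene with several starts also had more chances to be counted, and over all 32851 windows the share with either string was 38.6%. Below are the windows of Egln3, P4ha2 and Ankrd37, which had the largest falls under DMXAA in KO among members with a window, then of Pgk1, which had the largest called excess of the KO response over the WT response, and of Hk3, which rose most. Capitals mark the matched letters, each sequence runs 5′ to 3′ on the strand of its gene, and the last bases of the Ankrd37 window lie within an exon of it in GENCODE. The whole windows of P4ha2 and Ankrd37 lie inside the GENCODE bounds of these genes, past the outermost annotated start.
Egln3 (chr12:54203875-54204124, minus strand): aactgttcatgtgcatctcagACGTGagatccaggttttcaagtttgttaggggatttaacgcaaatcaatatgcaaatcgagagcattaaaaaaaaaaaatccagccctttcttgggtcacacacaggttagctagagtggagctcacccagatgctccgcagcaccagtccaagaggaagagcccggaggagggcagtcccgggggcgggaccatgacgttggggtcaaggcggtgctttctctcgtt
P4ha2 (chr11:54100674-54100923, plus strand): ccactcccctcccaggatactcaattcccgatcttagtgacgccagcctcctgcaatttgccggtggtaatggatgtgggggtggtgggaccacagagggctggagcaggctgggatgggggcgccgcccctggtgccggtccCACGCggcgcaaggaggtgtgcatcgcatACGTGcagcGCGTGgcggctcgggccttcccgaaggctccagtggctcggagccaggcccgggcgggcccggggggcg
Ankrd37 (chr8:45999851-46000100, minus strand): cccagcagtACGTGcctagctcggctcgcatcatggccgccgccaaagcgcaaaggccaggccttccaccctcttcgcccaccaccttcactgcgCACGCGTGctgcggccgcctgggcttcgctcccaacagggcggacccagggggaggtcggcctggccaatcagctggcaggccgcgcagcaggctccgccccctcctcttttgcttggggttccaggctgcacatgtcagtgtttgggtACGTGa
Pgk1 (chrX:106186850-106187099, plus strand): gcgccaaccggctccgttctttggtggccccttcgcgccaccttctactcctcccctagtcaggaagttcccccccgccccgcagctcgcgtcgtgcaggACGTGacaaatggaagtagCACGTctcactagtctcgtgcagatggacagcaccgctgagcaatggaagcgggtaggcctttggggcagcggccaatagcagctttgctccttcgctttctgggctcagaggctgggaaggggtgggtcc
Hk3 (chr13:55021386-55021635, minus strand): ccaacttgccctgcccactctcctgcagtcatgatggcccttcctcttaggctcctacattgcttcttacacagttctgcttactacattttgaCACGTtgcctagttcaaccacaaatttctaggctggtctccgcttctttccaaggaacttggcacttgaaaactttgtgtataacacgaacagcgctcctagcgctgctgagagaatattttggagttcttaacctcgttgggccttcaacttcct
The Ankrd37 window held 4 matches, P4ha2 3, Pgk1 2, and Egln3 and Hk3 1 each.

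Libraries held 94.1 to 98.1 M (mega) reads in KO under DMXAA, 85.1 to 92.5 M in WT under DMXAA, 79.9 to 92.4 M in KO under DMSO and 79.5 to 93.9 M in WT under DMSO. Mgmt, the gene named in the label, was lower in KO without being absent, with 51, 61 and 33 reads in KO against 107, 85 and 99 in WT under DMXAA, and 121, 141 and 162 in KO against 263, 245 and 243 in WT under DMSO. All 10 macrophage markers were listed in every library. Their summed level moved with the groups, at 9684 to 9753 reads per M in KO under DMXAA, 11730 to 11970 in WT under DMXAA, 16970 to 17790 in KO under DMSO and 20850 to 21290 in WT under DMSO. Of 9 neutrophil markers 8 were listed, with Elane not listed and Mpo below 0.1 reads per M, and they summed to 15.1 to 17.6, 8.39 to 8.47, 6.76 to 9.29 and 11.4 to 13.3 reads per M in the same 4 groups. The 4 endothelial markers, all listed, summed to 59.4 to 61.0, 53.0 to 55.9, 11.2 to 11.7 and 8.90 to 10.7. The 6 dendritic markers summed to 5.05 to 6.18, 5.36 to 5.45, 0.520 to 0.639 and 0.224 to 0.843 in these groups. The 6 stromal markers stood at 5.13 and 5.58 in replicates 2 and 3 of KO under DMSO and at most 0.850 in every other library, and B, T and NK, and erythroid markers at most 1.98 in any. The part of these shifts in the results below was not tested. In bulk RNA, fewer cells of a type and less RNA per cell cannot be told apart.

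Under DMXAA most of the non-glycolytic HIF targets fell in both genotypes, while the enzymes were mixed and their calls differed by genotype. Of the 13 non-glycolytic HIF targets, 10 fell and 2 rose in KO macrophages, and 10 fell and 2 rose in WT macrophages, with median log2 changes of -1.29 and -0.97. Of the 15 enzymes, 9 rose and 3 fell in KO (median 0.28), but 3 rose and 8 fell in WT (median -0.16). The median of all tested genes was -0.00 in each genotype. Over all 34 members, 13 rose and 15 fell in KO, where 33.7% of all 12704 tested genes rose and 32.9% fell, and 6 rose and 21 fell in WT, where 31.7% of 12752 rose and 31.1% fell. Calls are at an adjusted p below 0.05 in limma on log2 of the normalized count plus 1, with Benjamini-Hochberg adjustment over all tested genes. At least 2-fold, 2 members rose and 8 fell in KO, against 9% and 11.1% of all tested genes, and 2 rose and 6 fell in WT, against 8.48% and 10.4%. The groups did not overlap for 29 members in KO and 26 in WT, where 71% and 68.8% of all tested genes did not overlap. In both genotypes alike 14 members fell and 6 rose, and 3 enzymes, Gapdh, Pgk1 and Pkm, were called higher in KO and lower in WT. How many of all tested genes had such pairs of calls was not counted, so these counts are description only. Rescaling the libraries to the same total moved the median of all genes to -0.39 in KO and -0.32 in WT and left 20.3% of the calls in KO and 22.4% in WT on the higher side, against 50.6% and 50.5% as deposited. On that scale the enzyme median turned to -0.11 in KO and stood at -0.48 in WT. The median of the non-glycolytic targets was -1.68 in KO and -1.29 in WT. There 8 members rose and 23 fell in KO, and 4 rose and 28 fell in WT.

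**Figure D1:**
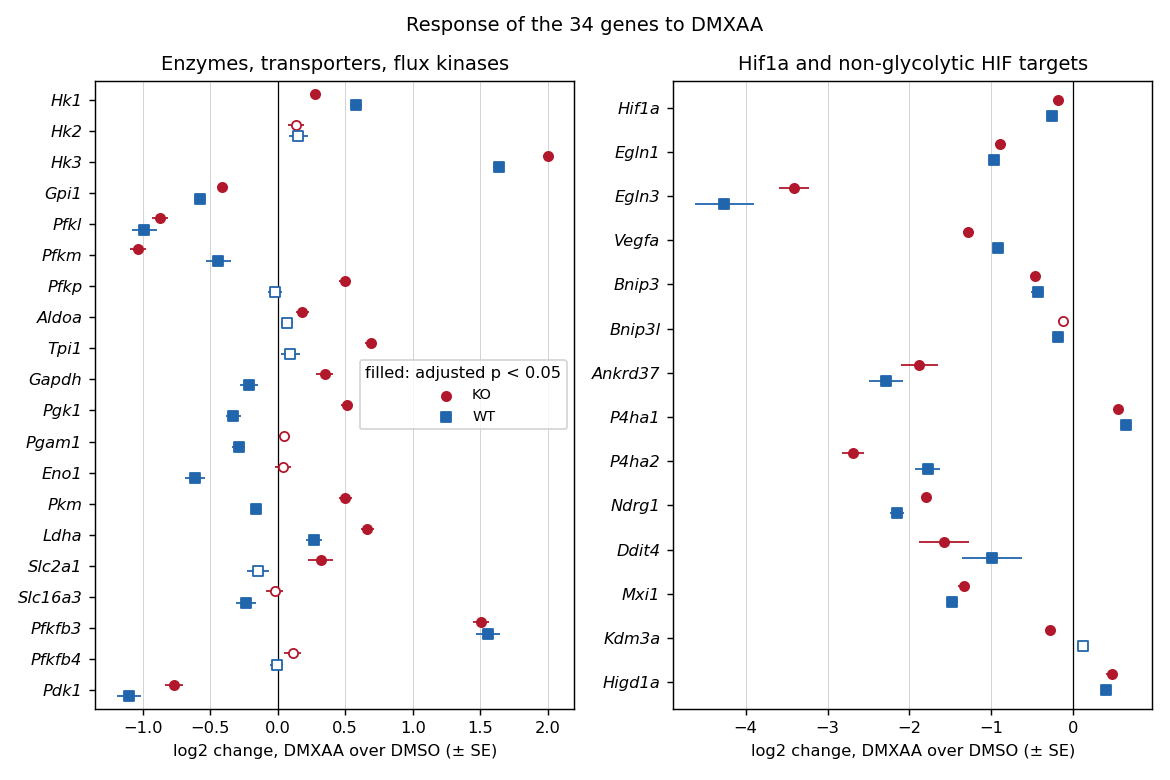
Log2 change under DMXAA over DMSO for each of the 34 members, in KO and in WT macrophages, grouped by role, with bars of 1 SE from the limma fit (n = 3 libraries per group). Most non-glycolytic HIF targets lie below 0 in both genotypes, down to -3.41 (KO) and -4.26 (WT) for Egln3, while Gapdh, Pgk1 and Pkm lie above 0 in KO and below 0 in WT. Filled symbols mark calls, and Gapdh turned to -0.04 in KO after rescaling to the same total.

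Among the non-glycolytic targets, the 5 with the largest falls in KO were Egln3, P4ha2, Ankrd37, Ndrg1 and Ddit4. Egln3, which encodes an oxygen-sensing prolyl hydroxylase that is itself induced by HIF, had 41.0, 33.8 and 51.1 normalized counts in KO under DMXAA, against 431, 406 and 516 under DMSO, and 4.50, 7.45 and 13.9 in WT under DMXAA, against 147, 187 and 172 under DMSO. Every DMXAA library lay far below every DMSO library, and the WT DMXAA libraries held only 4, 7 and 12 reads. Its log2 change was -3.41 (SE 0.182, adjusted p = 6.31e-08) in KO and -4.26 (SE 0.360, adjusted p = 3.61e-06) in WT. P4ha2, a catalytic subunit of collagen prolyl hydroxylase, had 219, 154 and 184 in KO under DMXAA, against 1055, 1244 and 1288 under DMSO, and 212, 153 and 147 in WT under DMXAA, against 617, 613 and 517 under DMSO. The groups did not overlap in either genotype, and the DMXAA libraries of both genotypes ended at like levels. The change was -2.69 (SE 0.136, adjusted p = 4.04e-08) in KO and -1.78 (SE 0.153, adjusted p = 4.14e-06) in WT. Its sister subunit P4ha1 went the other way, with log2 changes of 0.55 (SE 0.044, adjusted p = 1.45e-06) in KO and 0.64 (SE 0.061, adjusted p = 9.69e-06) in WT.

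Ankrd37, which encodes an ankyrin-repeat protein, had 67.3, 61.0 and 36.6 normalized counts in KO under DMXAA, against 211, 190.1 and 195 under DMSO, and 21.4, 25.5 and 25.4 in WT under DMXAA, against 121, 129.8 and 113 under DMSO. All DMXAA libraries were below all DMSO libraries, and the change was -1.88 (SE 0.227, adjusted p = 3.58e-05) in KO and -2.29 (SE 0.205, adjusted p = 5.67e-06) in WT. Ndrg1, a stress-responsive member of the NDRG family, had 1328, 1245 and 1256 in KO under DMXAA, against 4737, 4281 and 4328 under DMSO, and 612, 538 and 659 in WT under DMXAA, against 2574, 2790 and 2645 under DMSO. No DMXAA library reached the level of a DMSO library, and Ndrg1 fell, with log2 changes of -1.80 (SE 0.061, adjusted p = 1.88e-09) in KO and -2.15 (SE 0.085, adjusted p = 1.15e-08) in WT. Ddit4, which encodes an inhibitor of the growth kinase complex mTORC1, was low throughout, with 16.8, 11.98 and 18.9 in KO under DMXAA, against 55.5, 41.6 and 49.5 under DMSO, and 23.6, 16.0 and 45.1 in WT under DMXAA, against 45.5, 61.1 and 51.5 under DMSO. The KO groups stood well apart, while the highest WT DMXAA library lay just below the lowest WT DMSO library. The change was -1.57 (SE 0.304, adjusted p = 0.00101) in KO and -0.99 (SE 0.366, adjusted p = 0.0375) in WT, and the WT call was lost without replicate 1, 2 or 3 of WT under DMSO (adjusted p = 0.0558, 0.115 and 0.078), without replicate 1 or 2 of WT under DMXAA (0.0851 and 0.12), and on recovered reads in edgeR (0.0509) and DESeq2 (0.0722).

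Vegfa, the main growth factor of blood vessels, had 14945, 16070 and 17456 normalized counts in KO under DMXAA, against 41562, 38131 and 38519 under DMSO, and 14917, 15331 and 16430 in WT under DMXAA, against 28410, 30878 and 29252 under DMSO. The DMXAA libraries of the 2 genotypes interleaved, whereas under DMSO each KO library was above each WT library. Vegfa fell, with log2 changes of -1.29 (SE 0.060, adjusted p = 2.02e-08) in KO and -0.92 (SE 0.052, adjusted p = 1.71e-07) in WT. Mxi1, which encodes a MAX-binding repressor that opposes MYC, had 5167, 5056 and 4761 in KO under DMXAA, against 11699, 12388 and 13907 under DMSO, and 3603, 4017 and 4375 in WT under DMXAA, against 10695, 11335 and 11248 under DMSO. Its groups were wide apart, with changes of -1.34 (SE 0.065, adjusted p = 3.08e-08) in KO and -1.48 (SE 0.070, adjusted p = 4.81e-08) in WT. Of the other targets, Egln1, the main oxygen sensor of the family, fell, with log2 changes of -0.90 (SE 0.063, adjusted p = 5.40e-07) in KO and -0.97 (SE 0.066, adjusted p = 6.92e-07) in WT. Bnip3, a receptor for the removal of mitochondria, fell, with log2 changes of -0.47 (SE 0.063, adjusted p = 7.65e-05) in KO and -0.44 (SE 0.080, adjusted p = 8.89e-04) in WT. Higd1a, a small mitochondrial inner membrane protein, rose by a log2 change of 0.47 (SE 0.068, adjusted p = 1.40e-04) in KO and 0.40 (SE 0.055, adjusted p = 1.28e-04) in WT, calls that were lost after rescaling to equal library totals (adjusted p = 0.301 and 0.195). Bnip3l, another receptor for mitochondrial removal, changed by -0.13 in KO, which was not called, and -0.19 in WT. The KO value of Bnip3l was called as a fall by edgeR and DESeq2 on recovered reads (adjusted p = 0.0419 and 0.0488) and after rescaling to equal library totals (-0.52, adjusted p = 8.45e-06) or upper quartiles (-0.26, adjusted p = 0.0022). Kdm3a, a histone demethylase, changed by -0.28 in KO and 0.12 in WT, which was not called. The WT value of Kdm3a was called without replicate 2 of WT under DMSO (0.17, adjusted p = 0.0445) and turned to -0.20 after rescaling to equal library totals. The WT call of Bnip3l was lost without replicate 2 or 3 of WT under DMSO or replicate 1 or 3 of WT under DMXAA (adjusted p = 0.0681, 0.0619, 0.0705 and 0.0749).

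**Figure D2:**
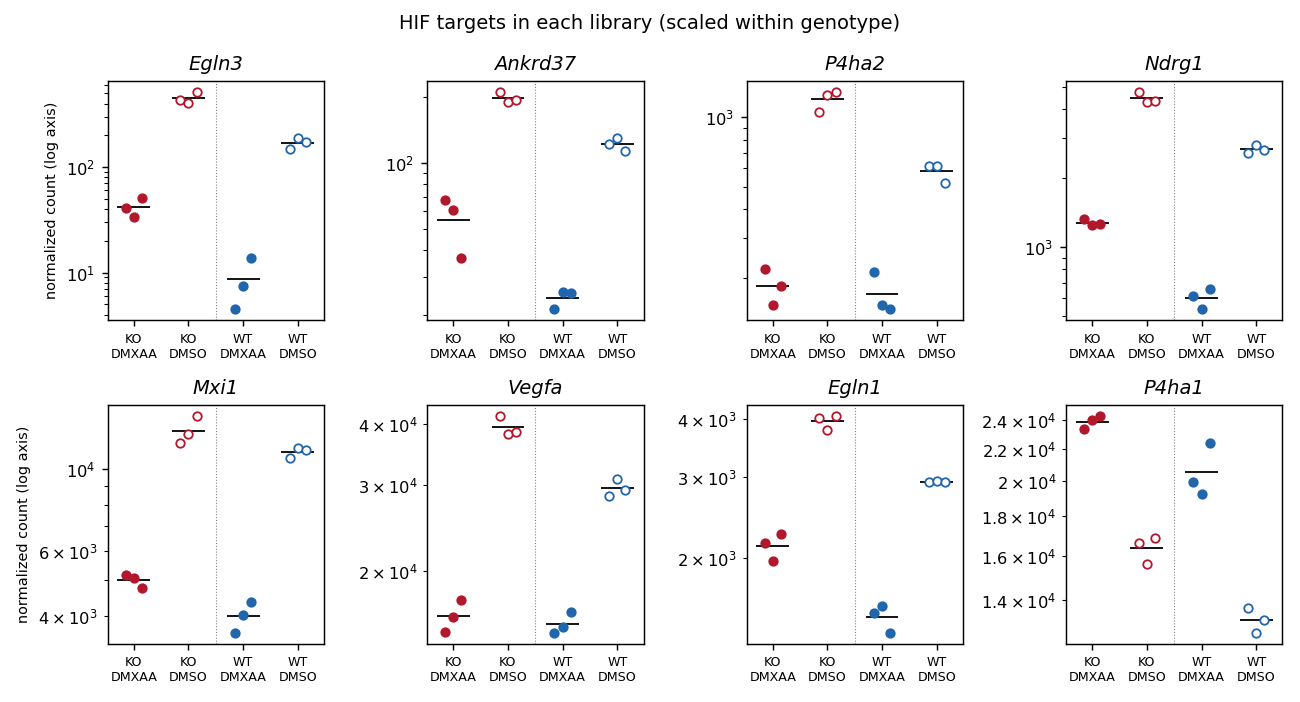
Normalized counts of 8 non-glycolytic HIF targets, scaled within genotype, on log axes, for KO and WT under DMXAA and DMSO, with a point for each of the 3 libraries per group and a bar at the group mean. Every DMXAA library of Egln3, Ankrd37, P4ha2, Ndrg1, Mxi1, Vegfa and Egln1 lies below every DMSO library of its genotype, and P4ha1 lies above.

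Hif1a itself encodes the regulated alpha chain. Its normalized counts were 9802, 9012 and 10524 in KO under DMXAA, against 11028, 11439 and 10986 under DMSO, and 9351, 9295 and 9496 in WT under DMXAA, against 10237, 12168 and 11445 under DMSO. The DMXAA libraries were lower without overlap in both genotypes. The change was -0.19 (SE 0.058, adjusted p = 0.0134) in KO and -0.26 (SE 0.063, adjusted p = 0.00446) in WT, and the transcript level says nothing of the protein, whose stability is the regulated step. The KO call was lost when the fit had no intensity trend (adjusted p = 0.0527). A same-strand GENCODE gene, Gm49321, shares exon positions with Hif1a.

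Of the 15 enzymes, Hk3, the hexokinase typical of myeloid cells, was the only one called higher at least 2-fold in either genotype. Hexokinases phosphorylate glucose as it enters the cell. Hk3 had 216833, 219644 and 220596 normalized counts in KO under DMXAA, against 55794, 53848 and 54324 under DMSO, and 203844, 204261 and 195946 in WT under DMXAA, against 66291, 63219 and 64725 under DMSO. The groups were far apart with little spread inside any of them, and Hk3 rose by a log2 change of 2.003 (SE 0.035, adjusted p = 8.03e-12) in KO and 1.64 (SE 0.040, adjusted p = 2.81e-10) in WT. Hk1, the widely expressed hexokinase, rose by 0.28 in KO (adjusted p = 1.82e-04), which turned to -0.11 after rescaling to equal library totals, and by 0.58 in WT (adjusted p = 1.16e-06). Hk2, the isoform best known as a HIF target, moved by 0.14 in KO (adjusted p = 0.0617) and 0.15 in WT (adjusted p = 0.0773), not called in either and turned to -0.25 and -0.17 by that rescaling. In WT it was called without replicate 1 under DMXAA (0.21, adjusted p = 0.0264).

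Phosphofructokinase commits sugar to glycolysis, and its 3 isoform genes moved apart. Pfkm, the muscle-type isoform, had 2519, 2695 and 2464 normalized counts in KO under DMXAA, against 5560, 5029 and 5194 under DMSO, and 2981, 2744 and 2452 in WT under DMXAA, against 4080, 3280 and 3750 under DMSO. The groups did not overlap in either genotype, with a wider gap in KO, and Pfkm fell, with log2 changes of -1.04 (SE 0.059, adjusted p = 1.01e-07) in KO and -0.44 (SE 0.093, adjusted p = 0.00219) in WT. Pfkp, the platelet-type isoform, had 14606, 14984 and 13959 in KO under DMXAA, against 10353, 10293 and 10165 under DMSO, and 10062, 10210 and 10499 in WT under DMXAA, against 11151, 9927 and 10187 under DMSO. The KO groups stood apart and the WT groups overlapped, with changes of 0.50 (SE 0.043, adjusted p = 2.50e-06) in KO and -0.02 (SE 0.054, adjusted p = 0.747) in WT. After rescaling to equal library totals the WT value was called as a fall (-0.34, adjusted p = 2e-04). Pfkl, the liver-type isoform, fell, with log2 changes of -0.88 (SE 0.061, adjusted p = 5.16e-07) in KO and -0.99 (SE 0.092, adjusted p = 7.22e-06) in WT. Between these steps, the isomerase gene Gpi1 fell, with log2 changes of -0.41 (SE 0.039, adjusted p = 5.42e-06) in KO and -0.58 (SE 0.042, adjusted p = 1.15e-06) in WT, and the aldolase gene Aldoa changed by 0.18 (SE 0.047, adjusted p = 0.00597) in KO and 0.07 (SE 0.044, adjusted p = 0.199) in WT, turning to -0.21 and -0.25 after rescaling to equal library totals. The KO call of Aldoa was lost after rescaling to equal upper quartiles (0.06, adjusted p = 0.313). Pfkm shares exon positions with a same-strand gene of GENCODE, Gm26513, so its reads are less certain.

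The lower stretch of the pathway, from triosephosphate isomerase to lactate dehydrogenase, is described apart from the rest, a split of the enzymes made after their values were seen. Of its 7 genes, 5 rose and 0 fell in KO (median 0.50), whereas 1 rose and 5 fell in WT (median -0.22). Tpi1, the isomerase of the triose phosphates, had 23680, 25032 and 24454 normalized counts in KO under DMXAA, against 15023, 15388 and 14992 under DMSO, and 15499, 15989 and 15636 in WT under DMXAA, against 16648, 14261 and 13501 under DMSO. The KO groups were clear of each other and the WT groups overlapped, with changes of 0.69 (SE 0.040, adjusted p = 1.15e-07) in KO and 0.09 (SE 0.071, adjusted p = 0.287) in WT. The WT change was called without replicate 1 of WT under DMSO (0.18, adjusted p = 0.00601), and it turned to -0.23 after rescaling to equal library totals. Gapdh, which oxidises glyceraldehyde phosphate, had 17676, 17936 and 17582 in KO under DMXAA, against 14853, 12557 and 14522 under DMSO, and 10809, 11407 and 11780 in WT under DMXAA, against 14494, 12874 and 12194 under DMSO. DMXAA libraries were all higher in KO and all lower in WT, with changes of 0.35 (SE 0.061, adjusted p = 5.26e-04) in KO, which turned to -0.04 after rescaling to equal library totals, and -0.22 (SE 0.067, adjusted p = 0.0169) in WT. The WT call of Gapdh was lost without replicate 1 of WT under DMXAA (adjusted p = 0.0652) or with no intensity trend (0.0619). Gapdh has many processed copies in the mouse genome. How reads that match several places were counted is not given in the sources used here, so its level is less certain. The same limit holds for any other member with such copies, which were not looked for here.

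Pgk1, the first enzyme of the pathway to make ATP, had 22521, 23594 and 22819 normalized counts in KO under DMXAA, against 15961, 15501 and 16826 under DMSO, and 13162, 13491 and 12509 in WT under DMXAA, against 17464, 16602 and 15200 under DMSO. Its libraries were all higher under DMXAA in KO and all lower in WT, with changes of 0.51 (SE 0.044, adjusted p = 2.55e-06) in KO and -0.33 (SE 0.059, adjusted p = 7.19e-04) in WT. Eno1, the main enolase, had 22671, 23240 and 22625 in KO under DMXAA, against 22810, 20263 and 23934 under DMSO, and 14525, 14707 and 16232 in WT under DMXAA, against 25340, 23378 and 20911 under DMSO. The KO groups overlapped and the WT groups did not, with changes of 0.04 (SE 0.058, adjusted p = 0.604) in KO, which turned to -0.35 after rescaling to equal library totals, and -0.61 (SE 0.072, adjusted p = 4.33e-05) in WT. Pkm, the pyruvate kinase gene of macrophages, had 185408, 194186 and 193165 in KO under DMXAA, against 129513, 131834 and 144106 under DMSO, and 147529, 142337 and 145104 in WT under DMXAA, against 165080, 163753 and 157124 under DMSO. All 3 DMXAA libraries were above the vehicle libraries in KO and below them in WT, with changes of 0.50 (SE 0.047, adjusted p = 4.90e-06) in KO and -0.16 (SE 0.039, adjusted p = 0.00536) in WT. Counts are per gene, so the M1 and M2 splice forms of Pkm were not separated, and a same-strand GENCODE gene, Gm49759, shares exon positions with it. Ldha, which makes lactate, rose by a log2 change of 0.66 (SE 0.047, adjusted p = 6.29e-07) in KO and 0.27 (SE 0.057, adjusted p = 0.00217) in WT, the WT value turning to -0.05 after rescaling to equal library totals. Pgam1, the phosphoglycerate mutase, changed by 0.05 (SE 0.044, adjusted p = 0.389) in KO, which turned to -0.34 by that rescaling, and -0.29 (SE 0.045, adjusted p = 3.00e-04) in WT.

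The transporters moved by less than 2-fold. Slc2a1, the glucose transporter GLUT1, had 2992, 2751 and 3179 normalized counts in KO under DMXAA, against 2288, 2147 and 2752 under DMSO, and 1859, 1855 and 2232 in WT under DMXAA, against 2101, 2217 and 2247 under DMSO. The groups overlapped in both genotypes, touching in KO by a single DMSO library, and the changes were 0.32 (SE 0.092, adjusted p = 0.0115) in KO, which turned to -0.07 after rescaling to equal library totals, and -0.15 (SE 0.081, adjusted p = 0.137) in WT. The WT change was called as a fall without replicate 3 of WT under DMXAA (-0.24, adjusted p = 0.0158) and after rescaling to equal library totals (-0.47, adjusted p = 0.000507) or upper quartiles (-0.26, adjusted p = 0.0172). The KO call was lost after rescaling to equal upper quartiles (0.19, adjusted p = 0.0849). Slc16a3, the lactate exporter MCT4, changed by -0.02 (SE 0.064, adjusted p = 0.753) in KO and -0.24 (SE 0.076, adjusted p = 0.0198) in WT, a WT call that was lost without replicate 1 or 2 of either WT group (adjusted p = 0.0508 to 0.0801) or with no intensity trend (adjusted p = 0.0632). After rescaling to equal library totals its KO value was called as a fall (-0.41, adjusted p = 0.000125).

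Of the 3 kinases that set flux, 1 rose and 1 fell in each genotype. Pfkfb3, which makes the sugar bisphosphate that activates phosphofructokinase, had 19316, 21023 and 21201 normalized counts in KO under DMXAA, against 6854, 7787 and 7005 under DMSO, and 18158, 20240 and 19415 in WT under DMXAA, against 5648, 6806 and 7283 under DMSO. Each DMXAA library was above each DMSO library by a wide margin, and Pfkfb3 rose by a log2 change of 1.51 (SE 0.059, adjusted p = 5.45e-09) in KO and 1.56 (SE 0.087, adjusted p = 1.61e-07) in WT. Pdk1, which blocks the entry of pyruvate into mitochondrial oxidation, had 2097, 1894 and 1948 in KO under DMXAA, against 3261, 3640 and 3218 under DMSO, and 1491, 1390 and 1235 in WT under DMXAA, against 2972, 3198 and 2688 under DMSO. It was lower in every DMXAA library, with changes of -0.77 (SE 0.067, adjusted p = 3.04e-06) in KO and -1.11 (SE 0.088, adjusted p = 2.35e-06) in WT. Pfkfb4, a relative of Pfkfb3, moved by 0.11 in KO (adjusted p = 0.133) and -0.01 in WT (adjusted p = 0.89), which after rescaling to equal library totals were called as falls, at -0.28 in KO (adjusted p = 0.00155) and -0.33 in WT (adjusted p = 0.000142). It was called in KO without replicate 1 under DMXAA (0.16, adjusted p = 0.047).

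The 2 sets of genes were then compared side by side within each library. The value was the mean log2 of the 15 enzymes minus the mean log2 of the 13 non-glycolytic targets. Rescaling a library hardly moves this difference. It was 4.29 to 4.48 in KO under DMXAA, against 2.98 to 3.01 in KO under DMSO, and 4.31 to 4.51 in WT under DMXAA, against 3.311 to 3.503 in WT under DMSO. Groups under DMXAA were thus higher without overlap in both genotypes. In the genotype tables the enzyme mean was 14.61 ± 0.0350 in KO under DMXAA, against 14.37 ± 0.0366 under DMSO, and 14.26 ± 0.0182 in WT under DMXAA, against 14.32 ± 0.0697 under DMSO (SD, n = 3 each). For the non-glycolytic targets it was 10.24 ± 0.0701 in KO under DMXAA, against 11.38 ± 0.0489 under DMSO, and 9.83 ± 0.113 in WT under DMXAA, against 10.93 ± 0.0620 under DMSO. As a share of all reads, the 15 enzymes took 0.902% ± 0.0191 in KO under DMXAA, against 0.802% ± 0.0188 under DMSO, and 0.795% ± 0.00648 in WT under DMXAA, against 0.840% ± 0.0344 under DMSO. Hk3 alone took 0.210% of reads in KO under DMXAA, against 0.0688% under DMSO, and 0.206% in WT under DMXAA, against 0.0824% under DMSO. The other 14 enzymes together were lower under DMXAA without overlap in both genotypes, at 0.692% ± 0.0192 in KO under DMXAA, against 0.734% ± 0.0199 under DMSO, and 0.590% ± 0.000875 in WT under DMXAA, against 0.758% ± 0.0340 under DMSO, a split made after the values were seen. On the scale of the genotype tables, their mean log2 was 14.38 ± 0.0371 in KO under DMXAA, against 14.27 ± 0.0380 under DMSO, and 14.02 ± 0.0204 in WT under DMXAA, against 14.20 ± 0.0733 under DMSO. No test was made of these means, since the members were chosen with results of these data known.

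**Figure D3:**
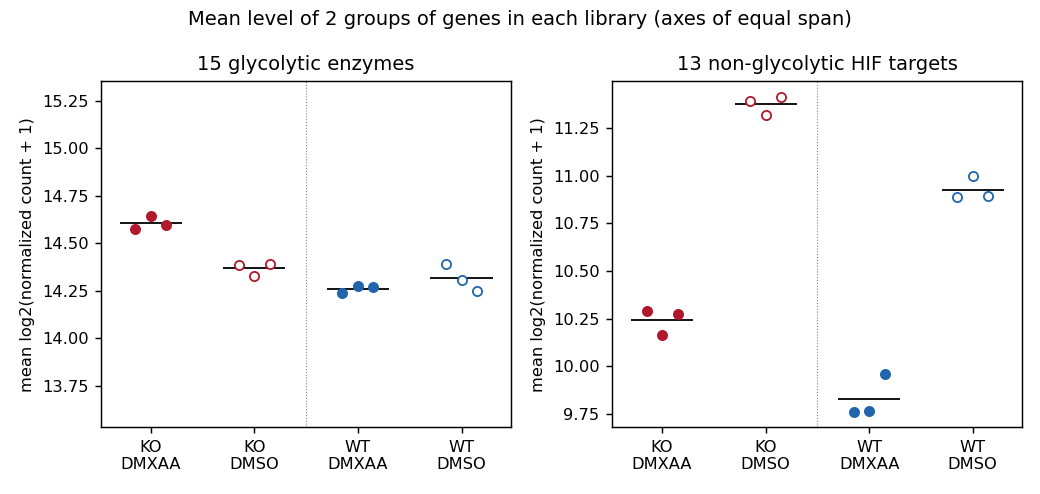
Mean log2(normalized count + 1) of the 15 enzymes and of the 13 non-glycolytic HIF targets in each library, for KO and WT under DMXAA and DMSO, scaled within genotype, with a point for each of the 3 libraries per group, a bar at the group mean and axes of equal span. KO and WT are not on a shared scale. The target means under DMXAA lie below those under DMSO in both genotypes, and the enzyme mean is higher under DMXAA than under DMSO in KO in this table, although after rescaling to equal library totals the enzyme median in KO turned to -0.11.

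The KO and WT macrophages were compared under each treatment in the tables that hold both genotypes. Under DMXAA, 22 of the 34 members were higher in KO and 1, Hk1, was lower, where 10.7% of all 12499 tested genes were higher and 10.8% lower. Of the enzymes, 11 of 15 were higher and 1 lower (median 0.32), and of the non-glycolytic targets 7 of 13 were higher and 0 lower (median 0.18), against a median of -0.00 over all genes. The groups did not overlap for 25 members, where 37.6% of all tested genes did not overlap. Of all calls 49.7% were on the higher side, and 34.3% after rescaling to the same total. At least 2-fold, 3 members were higher and 0 lower, where 0.792% and 1.88% of all tested genes were. Under DMSO, 11 members were higher in KO and 2 lower, where 7.04% of all 12814 tested genes were higher and 9.58% lower. At least 2-fold, 1 member was higher and 0 lower, where 0.523% and 2.39% of all tested genes were. Here 9 of 13 non-glycolytic targets were higher and 0 lower (median 0.38), while 2 enzymes were higher and 2 lower (median -0.00). The groups did not overlap for 19 members, where 34.7% of all tested genes did not overlap. Of the members, 7 were higher in KO under both treatments, namely Egln1, Egln3, Bnip3, Ankrd37, P4ha1, Ndrg1 and Pfkl, and 14 were called higher under DMXAA and not called under DMSO, which is no test of a difference between the treatments. Such pairs of calls were not counted over all tested genes. The 4 comparisons share libraries, so their values are given side by side and not as support for each other.

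**Figure D4:**
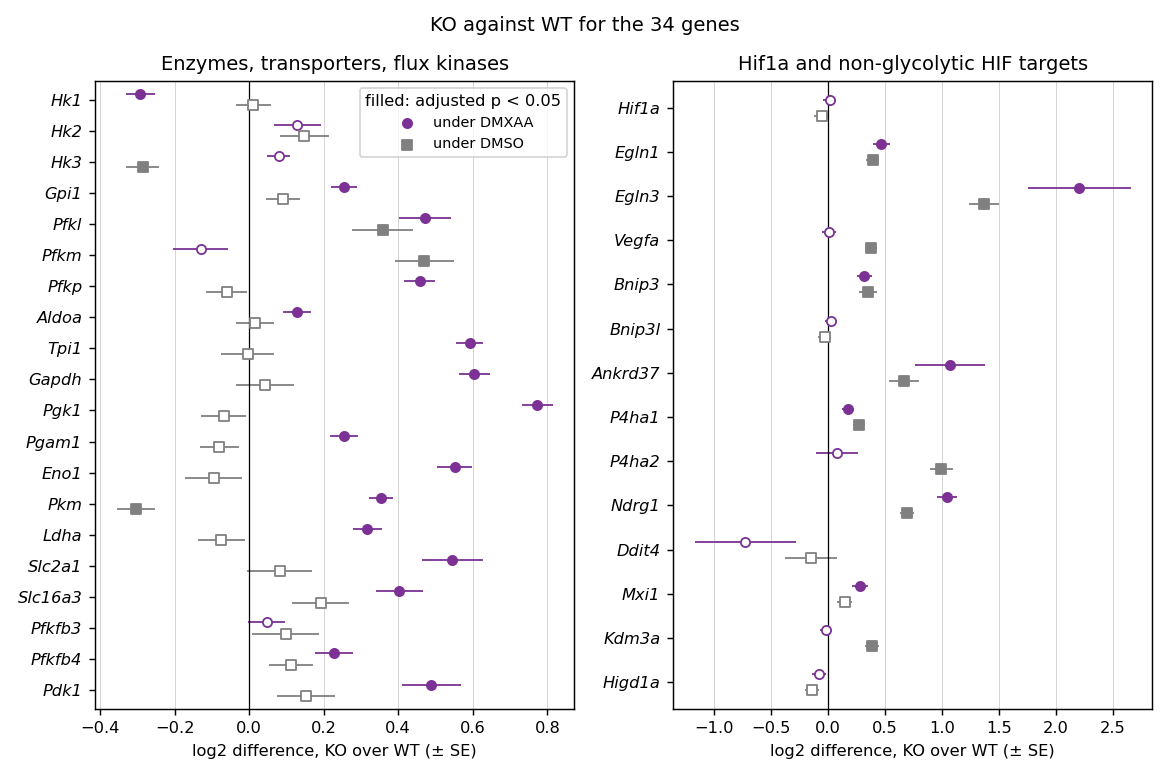
Log2 difference of KO over WT for each of the 34 members under DMXAA and under DMSO, grouped by role, with bars of 1 SE from the limma fit (n = 3 libraries per group). Under DMXAA all 7 genes from Tpi1 to Ldha lie above 0, at 0.25 to 0.77, while under DMSO they lie between -0.30 and 0.04.

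In the lower stretch of glycolysis all 7 genes were higher in KO under DMXAA (median 0.55), and under DMSO 0 were higher and 1 lower (median -0.07). Pgk1 had 20187, 21089 and 20403 normalized counts in KO against 12170, 12400 and 11529 in WT under DMXAA, and 17367, 16927 and 18276 in KO against 19562, 18626 and 17007 in WT under DMSO. The genotypes were far apart under DMXAA and overlapped under DMSO, with differences of 0.77 (SE 0.041, adjusted p = 1.64e-06) and -0.07 (SE 0.060, adjusted p = 0.494). Gapdh had 15843, 16032 and 15720 in KO against 9994, 10484 and 10857 in WT under DMXAA, and 16161, 13712 and 15773 in KO against 16236, 14443 and 13644 in WT under DMSO. It showed the same separation, with differences of 0.60 (SE 0.041, adjusted p = 5.76e-06) under DMXAA and 0.04 (SE 0.077, adjusted p = 0.76) under DMSO. Tpi1 had 21226, 22375 and 21864 in KO against 14331, 14696 and 14411 in WT under DMXAA, and 16346, 16804 and 16284 in KO against 18649, 15998 and 15106 in WT under DMSO. Its groups were apart under DMXAA and mixed under DMSO, with differences of 0.59 (SE 0.037, adjusted p = 3.26e-06) and -0.00 (SE 0.071, adjusted p = 0.98). Eno1 had 20321, 20773 and 20229 in KO against 13430, 13517 and 14960 in WT under DMXAA, and 24820, 22128 and 25996 in KO against 28386, 26227 and 23398 in WT under DMSO. It, too, overlapped under DMSO alone, with differences of 0.55 (SE 0.047, adjusted p = 2.38e-05) under DMXAA and -0.10 (SE 0.077, adjusted p = 0.453) under DMSO.

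**Figure D5:**
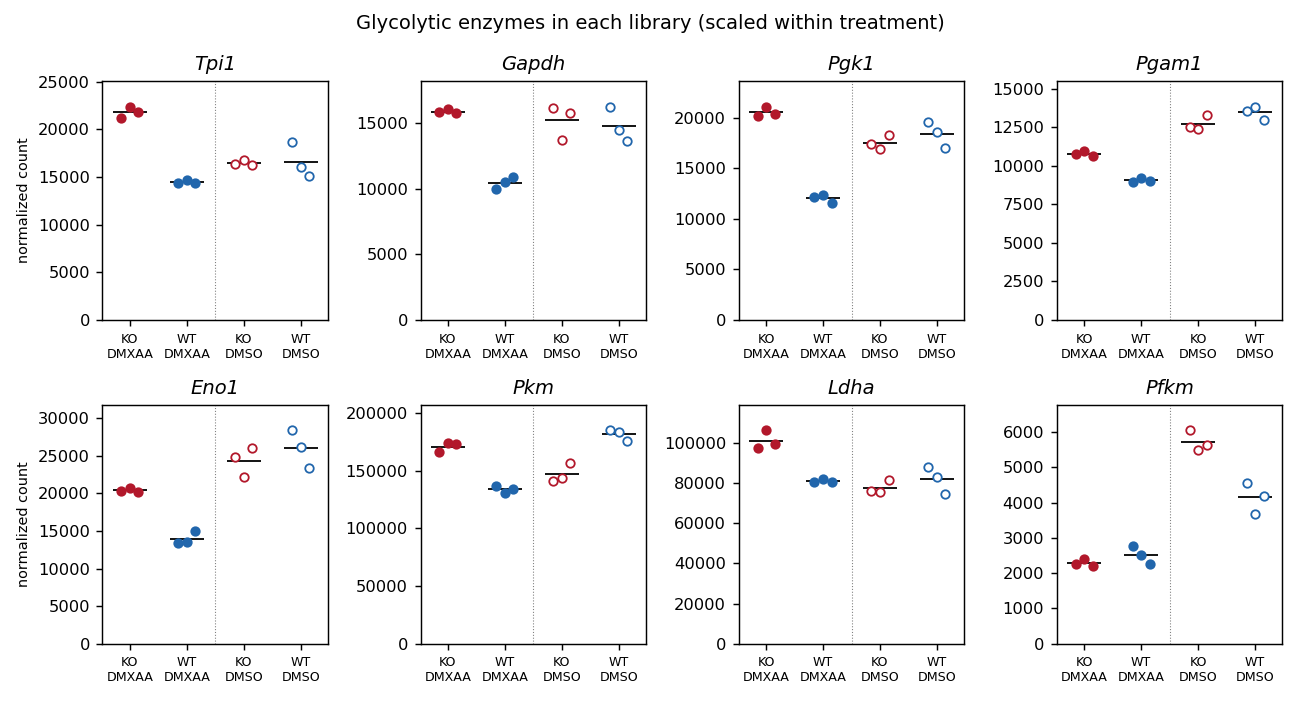
Normalized counts of 8 enzymes, the 7 from Tpi1 to Ldha and Pfkm, scaled within treatment, on linear axes from 0, with a point for each of the 3 libraries per group and a bar at the group mean. Under DMXAA the KO libraries lie above the WT libraries for the 7 genes, while under DMSO the genotypes overlap for Tpi1, Gapdh, Pgk1, Pgam1, Eno1 and Ldha and lie apart for Pkm, lower in KO, and Pfkm, higher in KO.

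Pkm was called in opposite directions under the 2 treatments. It had 166189, 173569 and 172713 normalized counts in KO against 136406, 130825 and 133733 in WT under DMXAA, and 140925, 143963 and 156518 in KO against 184918, 183708 and 175807 in WT under DMSO. Each KO library was above each WT library under DMXAA and below each under DMSO, with differences of 0.35 (SE 0.033, adjusted p = 4.85e-05) and -0.30 (SE 0.052, adjusted p = 0.0021). Pfkp had 13092, 13393 and 12481 in KO against 9303, 9384 and 9677 in WT under DMXAA, and 11265, 11240 and 11041 in KO against 12491, 11137 and 11398 in WT under DMSO. The genotypes stood apart under DMXAA only, with differences of 0.46 (SE 0.042, adjusted p = 3.96e-05) and -0.06 (SE 0.056, adjusted p = 0.515). Pfkm had 2258, 2409 and 2203 in KO against 2757, 2522 and 2260 in WT under DMXAA, and 6049, 5492 and 5642 in KO against 4571, 3680 and 4196 in WT under DMSO. Here the gap was under DMSO, with differences of -0.13 (SE 0.074, adjusted p = 0.255) under DMXAA and 0.47 (SE 0.079, adjusted p = 0.00206) under DMSO. Hk3 had 194357, 196324 and 197239 in KO against 188475, 187740 and 180591 in WT under DMXAA, and 60711, 58802 and 59003 in KO against 74257, 70923 and 72421 in WT under DMSO. KO libraries were all higher under DMXAA and all lower under DMSO, and the differences were 0.08 (SE 0.032, adjusted p = 0.106), which was not called, and -0.29 (SE 0.044, adjusted p = 0.00114). Hk1 was lower in KO under DMXAA, at -0.29 (adjusted p = 3.98e-04). Pfkl was higher in KO by 0.47 under DMXAA and 0.36 under DMSO. The DMSO call of Pfkl was lost without replicate 1 of KO under DMSO (adjusted p = 0.0558) or with no intensity trend (0.0893). Ldha, Pgam1 and Gpi1 were higher in KO by 0.32, 0.25 and 0.25 under DMXAA and were not called under DMSO. The call of Aldoa under DMXAA, at 0.13, was lost without any one of 5 of the 6 libraries, replicate 1 of KO being the exception (adjusted p = 0.0638 to 0.104). That call was also lost with no filter on low values (0.0648) or no intensity trend (0.144). Rescaling to equal library totals (0.114) or upper quartiles (0.0732) lost it as well.

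Slc2a1 had 2682, 2459 and 2843 normalized counts in KO against 1719, 1705 and 2057 in WT under DMXAA, and 2490, 2345 and 2989 in KO against 2354, 2487 and 2514 in WT under DMSO. The KO libraries were all higher under DMXAA and overlapped WT under DMSO, with differences of 0.55 (SE 0.082, adjusted p = 9.65e-04) and 0.08 (SE 0.088, adjusted p = 0.584). Slc16a3 was higher in KO by 0.40 under DMXAA (adjusted p = 0.00107) and was not called under DMSO (0.19, adjusted p = 0.116). Pdk1 had 1880, 1693 and 1742 in KO against 1378, 1278 and 1139 in WT under DMXAA, and 3548, 3975 and 3495 in KO against 3330, 3587 and 3007 in WT under DMSO. It was apart under DMXAA and overlapping under DMSO, with differences of 0.49 (SE 0.079, adjusted p = 0.0014) and 0.15 (SE 0.079, adjusted p = 0.228). Pfkfb3 had 17314, 18791 and 18956 in KO against 16789, 18603 and 17894 in WT under DMXAA, and 7458, 8503 and 7608 in KO against 6327, 7635 and 8149 in WT under DMSO. Its genotypes overlapped under both treatments. Pfkfb4 was higher in KO by 0.23 under DMXAA (adjusted p = 0.0093), a call lost with no intensity trend (adjusted p = 0.0513). Pfkfb3 and Hif1a were called in neither comparison, with differences of 0.05 and 0.01 under DMXAA and 0.10 and -0.05 under DMSO.

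Of the non-glycolytic targets, 6 were called higher in KO under both treatments. Egln3 had 36.8, 30.2 and 45.7 normalized counts in KO against 4.16, 6.85 and 12.8 in WT under DMXAA, and 469, 443 and 560.2 in KO against 165, 210.3 and 193 in WT under DMSO. No WT library reached a KO library under either treatment, and the differences were 2.21 (SE 0.450, adjusted p = 0.00572) and 1.37 (SE 0.134, adjusted p = 5.78e-05). Ndrg1 had 1191, 1113 and 1123 in KO against 565, 494 and 607 in WT under DMXAA, and 5154, 4675 and 4701 in KO against 2883, 3130 and 2960 in WT under DMSO. Its genotypes were likewise apart under both, by 1.04 (SE 0.087, adjusted p = 2.10e-05) and 0.69 (SE 0.064, adjusted p = 3.82e-05). Ankrd37 had 60.3, 54.5 and 32.8 in KO against 19.7, 23.5 and 23.4 in WT under DMXAA, and 229.9, 208 and 212 in KO against 136, 146 and 126 in WT under DMSO. The groups did not overlap, with differences of 1.07 (SE 0.308, adjusted p = 0.0307) and 0.67 (SE 0.134, adjusted p = 0.00583), but the call under DMXAA was lost without replicate 1 or 2 of KO or any replicate of WT under DMXAA (adjusted p = 0.0579 to 0.122). P4ha2 had 196, 137 and 165 in KO against 196, 141 and 135 in WT under DMXAA, and 1148, 1359 and 1399 in KO against 691, 688 and 578 in WT under DMSO. It was mixed under DMXAA and clearly apart under DMSO, with differences of 0.08 (SE 0.184, adjusted p = 0.809) and 0.995 (SE 0.103, adjusted p = 8.74e-05). Vegfa had 13396, 14364 and 15608 in KO against 13792, 14091 and 15143 in WT under DMXAA, and 45224, 41639 and 41836 in KO against 31825, 34640 and 32731 in WT under DMSO. It was again apart under DMSO only, with differences of 0.01 (SE 0.058, adjusted p = 0.931) under DMXAA and 0.38 (SE 0.053, adjusted p = 6.48e-04) under DMSO. Egln1, Bnip3 and P4ha1 were higher in KO by 0.47, 0.32 and 0.18 under DMXAA and by 0.39, 0.35 and 0.27 under DMSO, and Kdm3a by 0.39 under DMSO. Mxi1 had 4632, 4519 and 4257 in KO against 3331, 3692 and 4033 in WT under DMXAA, and 12730, 13528 and 15105 in KO against 11980, 12716 and 12585 in WT under DMSO. KO libraries were all higher under both, with differences of 0.28 (SE 0.069, adjusted p = 0.0144) and 0.15 (SE 0.065, adjusted p = 0.161). The DMXAA call of P4ha1 was lost without any one of 5 of the 6 libraries, replicate 3 of WT being the exception (adjusted p = 0.0608 to 0.14), and that of Mxi1 without replicate 1 of KO (adjusted p = 0.0529). With no intensity trend both calls were lost (0.148 for P4ha1 and 0.0812 for Mxi1). P4ha1 was also not called with no filter on low values (0.0515) or after rescaling to equal library totals (0.0964) or upper quartiles (0.0574). Ddit4 had 15.1, 10.7 and 16.9 in KO against 21.8, 14.7 and 41.5 in WT under DMXAA, and 60.4, 45.4 and 53.7 in KO against 51.0, 68.5 and 57.6 in WT under DMSO. Its genotypes overlapped under both treatments, and Bnip3l, Ddit4 and Higd1a were called in neither comparison.

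The difference between the 2 responses was tested directly as an interaction over all 12 libraries. Of the 34 members, 10 had a higher response in KO and 5 a lower one, where 5.37% of all 12729 tested genes were higher and 3.24% lower. In all, 8.6% were called. Of these 62.4% were on the higher side, and 39.2% after rescaling to the same total. At least 2-fold, 0 members were higher and 0 lower, where 0.778% and 0.503% of all tested genes were. The 10 were 9 enzymes and Slc2a1, and the 5 were Hk1, Pfkm, Vegfa, P4ha2 and Kdm3a. All 7 enzymes from Tpi1 to Ldha were called, at 0.33 to 0.84 (median 0.60), while the 8 enzymes from hexokinase to aldolase had 2 higher and 2 lower (median 0.11). For Pgk1 the difference of the responses was 0.84 (SE 0.074, adjusted p = 1.27e-05), for Pkm 0.66 (SE 0.060, adjusted p = 1.68e-05), and for Eno1 0.65 (SE 0.1001, adjusted p = 0.00102). Tpi1, Gapdh and Pfkp followed at 0.60, 0.56 and 0.52, and Pfkm ran the other way at -0.60 (SE 0.118, adjusted p = 0.00545). The enzyme median was 0.36, against 0.06 for the 13 non-glycolytic targets and 0.00 for all genes, and the target median turned to -0.01 after rescaling to equal library totals. Of the non-glycolytic targets, 0 had a higher and 3 a lower response, P4ha2 at -0.91 (SE 0.221, adjusted p = 0.0191), Kdm3a at -0.41 (SE 0.081, adjusted p = 0.00579) and Vegfa at -0.37 (SE 0.083, adjusted p = 0.013). The calls of P4ha2 and Vegfa were lost when the fit had no intensity trend (adjusted p = 0.0516 and 0.0509). Egln3, at 0.84 (SE 0.412, adjusted p = 0.254), was called without replicate 3 of WT under DMXAA (1.21, adjusted p = 0.0376), as was Ndrg1 (0.41, adjusted p = 0.0267, against 0.35 with all libraries). On recovered reads Ndrg1 was also called by edgeR and DESeq2 (adjusted p = 0.0477 and 0.0148), and Gpi1 and Pdk1 by DESeq2 (0.0201 and 0.0481). The Slc2a1 call (0.46, adjusted p = 0.0426) was lost without replicate 1 or 3 of KO under DMXAA, replicate 1 or 2 of WT under DMXAA, replicate 1 or 2 of KO under DMSO, or replicate 2 or 3 of WT under DMSO (adjusted p = 0.0798 to 0.106), and by that rescaling (0.39, adjusted p = 0.0701). Gpi1 was called without replicate 3 of WT under DMSO (0.19, adjusted p = 0.049).

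Levels were compared between genes per length, as reads per kilobase of the principal GENCODE transcript per M reads. In KO under DMXAA the 4 highest enzymes were Aldoa at 1570 ± 61.8, Pkm at 754 ± 13.7, Hk3 at 654 ± 1.8 and Ldha at 615 ± 25.7 (SD, n = 3). The place of Gapdh, at 120 ± 1.29, is less certain, since how reads that match several places were counted is not given. The same holds for any other enzyme with copies elsewhere in the genome, which was not checked here. Over all exons of each gene in place of the principal transcript, Aldoa stayed highest, at 639, but Hk3, at 572, was above Pkm, at 367, so the order of Hk3 and Pkm depends on the length used. In WT under DMXAA these levels were Aldoa at 1481 ± 14.9, Hk3 at 639 ± 17.6, Pkm at 609 ± 15.6 and Ldha at 508 ± 4.46. The Hk3 level under DMSO was 214 ± 4.45 in KO and 256 ± 4.17 in WT. Among hexokinases, Hk3 exceeded Hk1 and Hk1 exceeded Hk2 in every group under both lengths, with Hk1 at 36.1 ± 0.866 and Hk2 at 4.93 ± 0.17 in KO under DMXAA. The lowest members in that group under both lengths were Ddit4 at 0.0871 ± 0.0195 and Egln3 at 0.151 ± 0.0312, followed by Ankrd37 at 0.571 ± 0.17 and P4ha2 at 0.8 ± 0.146, which changed places over all exons. The 3 phosphofructokinase isoforms ranked Pfkp, Pfkl and Pfkm in KO under DMXAA under both lengths. In every other group their order depended on the transcript length used. No place is given for Vegfa, whose principal transcript in the annotation is only 654 bases long.

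Genes of neighbouring pathways, from lists made with earlier results known, were counted in the same fits. Among 20 tested genes of glucose entry and other glycolytic isoforms, 6 rose and 7 fell in KO and 3 rose and 6 fell in WT. The minor aldolase gene Aldoc stood at -2.63 in KO and -2.51 in WT, while the hexose transporter Slc2a6 rose by 1.48 and 1.92. Of 33 tested further HIF targets 7 rose and 16 fell in WT, and of 31 in KO 11 rose and 16 fell. Their log2 changes ran from -4.01 to 7.58 in KO and from -3.23 to 9.03 in WT. Among them, the VEGF receptor Flt1 stood at 2.59 in KO and 3.05 in WT and the DNA-binding protein Zfp395 at -1.38 and -1.57. Among 15 tested regulators of HIF, 5 rose and 4 fell in KO and 5 rose and 3 fell in WT. Epas1, which encodes the alpha chain of HIF-2, fell, with log2 changes of -2.84 in KO and -3.06 in WT, and it was higher in KO than in WT under DMXAA (1.11) and under DMSO (0.89). Glycogen genes fell in 7 of 12 in KO and 8 of 12 in WT, with 1 higher in each, and the liver-type glycogen phosphorylase Pygl stood at -1.85 in KO and -2.42 in WT. Of 10 genes of the pentose phosphate pathway 2 rose and 6 fell in KO and 3 rose and 6 fell in WT, with the first enzyme of that pathway, G6pdx, at 0.63 in KO and 0.32 in WT. Of 20 genes listed under the tricarboxylic acid cycle 8 rose and 6 fell in KO (median 0.01) and 8 rose and 7 fell in WT (median 0.04). The lowest of that list was Idh1, at -1.60 in KO and -1.31 in WT, which encodes the cytosolic isocitrate dehydrogenase and not a step of the cycle. Pyruvate oxidation was split, 3 rising and 3 falling of 12 in KO and 4 and 4 in WT. None of these lists was tested as a set, and their shares of called genes stand beside a background of 66.6% in KO and 62.8% in WT.

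The authors' deposited tables call 13 members higher and 15 lower under DMXAA in KO, 6 higher and 20 lower in WT, 22 higher and 1 lower in KO over WT under DMXAA, and 11 higher and 2 lower under DMSO, at an adjusted p below 0.05. Coordinates of the members the results turn on, from GENCODE vM21 on GRCm38 (mm10), are chromosome 13, 55005985 to 55021385 for Hk3, chromosome X, 106187100 to 106203699 for Pgk1, chromosome 6, 124810586 to 124814296 for Tpi1, chromosome 6, 125161715 to 125166467 for Gapdh, and chromosome 9, 59656368 to 59679375 for Pkm. Egln3 lies at chromosome 12, 54178981 to 54203860, P4ha2 at chromosome 11, 54100095 to 54131665, Ankrd37 at chromosome 8, 45996902 to 46005707, Ndrg1 at chromosome 15, 66929318 to 66969640, and Vegfa at chromosome 17, 46016993 to 46032369. Exons of 16 of the 34 members overlap those of another GENCODE gene, among them Gapdh, Tpi1, Hk3, Ankrd37 and Ndrg1 on the opposite strand. The kit keeps strand per the labels, but the strand setting of the counting is not given in the sources used here, so reads of such pairs may not be told apart.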

How the data were processed

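RNA of 12 mouse bone marrow-derived macrophage libraries was sequenced with a strand-keeping kit, per the labels' protocols. Reads were aligned with HISAT2 to mm10 and counted with featureCounts, per the submitters' processing notes, which name no versions. The authors deposited 4 tables of normalized counts (gene counts divided by a size factor, here handled as a signal), each scaled over the 6 libraries of 1 genotype or 1 treatment, with their own log2 fold changes, test scores and p-values, per the file headers. Each column was a whole multiple of 1 step for 100% of values (tolerance 0.01), so whole reads were recovered, and all 182112 values held by 2 tables gave the same reads in both.

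Genes whose normalized counts averaged 10 or more were tested on log2(normalized count + 1) with limma 3.58.1 with an intensity trend in R 4.3.3, with Benjamini-Hochberg adjustment over all tested genes and a threshold of 0.05. Responses to DMXAA were fitted in the genotype tables, KO over WT in the treatment tables, and the interaction over all 12 libraries. Tables were normalized separately, so levels are set side by side across tables for description only. Fold changes on this scale understate the change of low genes. Per-library values are given for members called at an absolute log2 of at least 1 in any 2-group comparison, or at least 0.5 in KO over WT or the interaction, and other members by counts and examples of smallest p. The members and lists were chosen with earlier results of these data known. Alternatives were pseudocounts of 0.5 and 5, no filter, libraries of the same total or upper quartile, edgeR 4.0.16 and DESeq2 1.42.0 on whole reads, no trend, a replicate block, and leaving out each library. Values of the enzymes without Hk3 were added after seeing the data. The fits were tested on simulated data. Tables were handled with python 3.11.15, pandas 2.3.3 and numpy 2.4.6.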

Additional observations from a re-analysis of the deposited data

Results flagged for a closer look

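For 15 members the response to DMXAA in KO differed from that in WT by the tested interaction (limma, Benjamini-Hochberg adjustment over all tested genes), each given as the log2 response in KO minus that in WT. Among the enzymes it was higher in KO for Hk3 (0.36), Pfkp (0.52), Tpi1 (0.60), Gapdh (0.56), Pgk1 (0.84), Pgam1 (0.33), Eno1 (0.65), Pkm (0.66) and Ldha (0.39). It was lower in KO for Hk1 (-0.30) and Pfkm (-0.60). The glucose transporter Slc2a1 had 0.46, a call that was lost without any one of 8 of the 12 libraries. The non-glycolytic targets Vegfa (-0.37), P4ha2 (-0.91) and Kdm3a (-0.41) were lower in KO. Groups of 3 libraries were too small for a search for outlying libraries.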

How the results depend on the processing

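The counts of called members changed by over 1.5 times in 3 cases. With libraries rescaled to the same total, 8 members rose and 23 fell under DMXAA in KO, against 13 and 15. In WT that rescaling gave 4 and 28, against 6 and 21, changes that did not exceed 1.5 times. With no intensity trend, 3 members had a lower response in KO, against 5, and over all genes KO over WT calls fell to 1696 under DMXAA and 1370 under DMSO, against 2686 and 2129. Without replicate 1 of KO under DMSO there were 1399 calls under DMSO. On the same-total scale the KO responses of Hk1 (-0.11), Hk2 (-0.25), Aldoa (-0.21), Gapdh (-0.042), Pgam1 (-0.34), Eno1 (-0.35), Slc2a1 (-0.071) and Pfkfb4 (-0.28) changed sign, as did the WT responses of Hk2 (-0.17), Aldoa (-0.25), Tpi1 (-0.23), Ldha (-0.049) and Kdm3a (-0.20). It also added called falls for Slc16a3 and Bnip3l in KO and for Pfkp, Slc2a1 and Pfkfb4 in WT. That scale divides each library by its own total, and the cause of the shift in totals was not tested. Leaving out each library in turn gave 13 to 14 members higher and 15 lower in KO, 6 to 7 and 17 to 21 in WT, 19 to 20 and 1 for KO over WT under DMXAA, 10 to 11 and 2 under DMSO, and 9 to 12 and 5 for the interaction. The labels do not say that a number marks a shared mouse, so the numbers were not taken to pair samples. By title number, same-numbered libraries correlated at -0.0978 to 0.122. For DMXAA over DMSO in WT all same-numbered pairs (0.0361, 0.0532 and 0.122) exceeded the highest other pair (0.0208, 0.0243 and -0.0586). The numerals in the library names run differently and were not compared, so a pairing could not be settled. With the replicate block 13 members rose and 15 fell in KO and 6 and 21 in WT, and all-gene calls were 8267, 7865, 2491, 1915 and 989 in the 5 comparisons, against 8462, 8007, 2686, 2129 and 1095 without it. Low counts limit Egln3, Ankrd37 and Ddit4, which had under 100 reads in each DMXAA library.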
